A study of Pyrus pyrifolia with 12 samples.

Results

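Akibae and CuiYu are pear varieties (Pyrus pyrifolia), and the comparison here set the RNA of mature Akibae fruit skin against that of mature CuiYu fruit skin. In Akibae skin 15 of 22 tested cutin genes and 26 of 52 tested cuticular wax genes were lower and 0 higher, and so were 6 of 11 homeobox factors that mark the epidermis. No list with at least 9 members tested had as large a share of higher genes. Genes called higher in Akibae included 6 named MLP-like protein 328 and single copies of laccase, dihydroflavonol reductase and phytoene synthase. For laccase, the reductase and the synthase another gene was called lower, and so were 5 genes of other MLP-like or Bet v 1 names. The comparison was made of all genes in 3 libraries of each variety, 6 of the 12 libraries in the study, and covered 43732 listed genes, of which 26307 had enough reads to be tested.

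The study, whose title names russeting of the pear exocarp as its subject, sequenced RNA from the fruit skin of Akibae, CuiYu, Nijisseiki and SuCui NO.1. The 3 Akibae libraries came from fruit picked 120 days after full bloom and the 3 CuiYu libraries from fruit picked 105 days after full bloom. Nijisseiki, picked at 135 days, and SuCui NO.1, picked at 105 days, entered the fit for the spread between replicates, and beyond that only a few of their levels are given. All trees stood in orchards in Yizheng (Jiangsu, China), the fruit was untreated, and each variety had 3 biological replicates, for which a shared tree or picking day is not stated. Variety and days from bloom differ together between Akibae and CuiYu, so a difference of variety and one of fruit age cannot be told apart. The labels used here do not say which skin type either variety had.

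The outer wall of a fruit epidermal cell carries a cuticle, a layer of the polyester cutin filled and coated with waxes made from very-long-chain fatty acids. In a russet skin this layer is broken and replaced by cork, whose walls hold suberin, a polyester of long-chain fatty acids and ferulic acid, together with lignin. Cutin and suberin are built by related enzyme families: cytochrome P450 hydroxylases, glycerol-3-phosphate acyltransferases and ABCG transporters, with different members active in epidermis and cork.

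The libraries held 12877896, 11981445 and 13256963 counted reads in Akibae and 15136559, 13489198 and 13660440 in CuiYu, within the series' range of 11981445 to 15136559. Levels are given as CPM, the read counts scaled to a common library size, and changes as the log2 of Akibae over CuiYu. Akibae replicate 3 stood apart from the other Akibae libraries in some groups: it was the lowest Akibae library for 32 of 55 heat shock genes and the highest for 45 of 64 photosystem and light-harvesting genes. Over all 26307 genes tested it was the lowest for 9736 and the highest for 9854. CuiYu replicate 1 was the highest CuiYu library for 16 of 19 suberin genes and for 9267 of all 26307 genes tested. Gene names are the best Swiss-Prot matches in the deposited table, so several genes can bear 1 name, and near-identical copies may share reads.

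Of the 26307 genes tested, 1840 were higher and 2128 lower in Akibae (edgeR quasi-likelihood test, Benjamini-Hochberg adjusted p under 0.05), which makes 15.1% called, 6.99% higher and 8.09% lower. Their median log2 fold change was 2.31 among the higher and -2.25 among the lower, against 0.03 over all genes tested. At least 4-fold changes made up 1030 of the higher and 1161 of the lower genes. The 3 libraries of Akibae lay wholly above those of CuiYu for 1817 of the 1840 higher genes and wholly below for 2124 of the 2128 lower ones, where over all genes tested 22.0% lay wholly above and 21.4% wholly below. Leaving out 1 of these 6 libraries at a time kept 1897 of the calls in all 6 fits. Without Akibae replicate 3 there were 1779 higher and 1995 lower genes, and without any other 1 of the libraries 964 to 1193 higher and 1233 to 1572 lower.

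**Figure D1:**
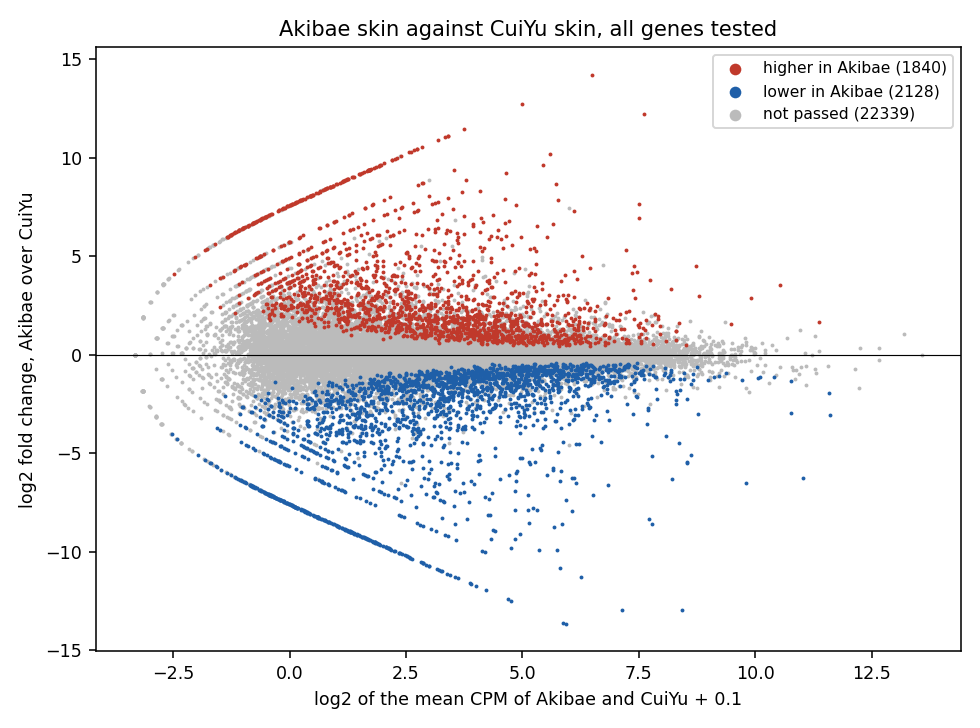
Each point is 1 of the 26307 genes tested, placed by its log2 mean CPM over the Akibae and CuiYu libraries (x axis) and its log2 fold change, Akibae over CuiYu (y axis). The 1840 higher genes are red, the 2128 lower genes blue and the 22339 others grey. Both colours reach across the whole range of levels, and the lowest blue points include genes with no read in Akibae.

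**Figure D2:**
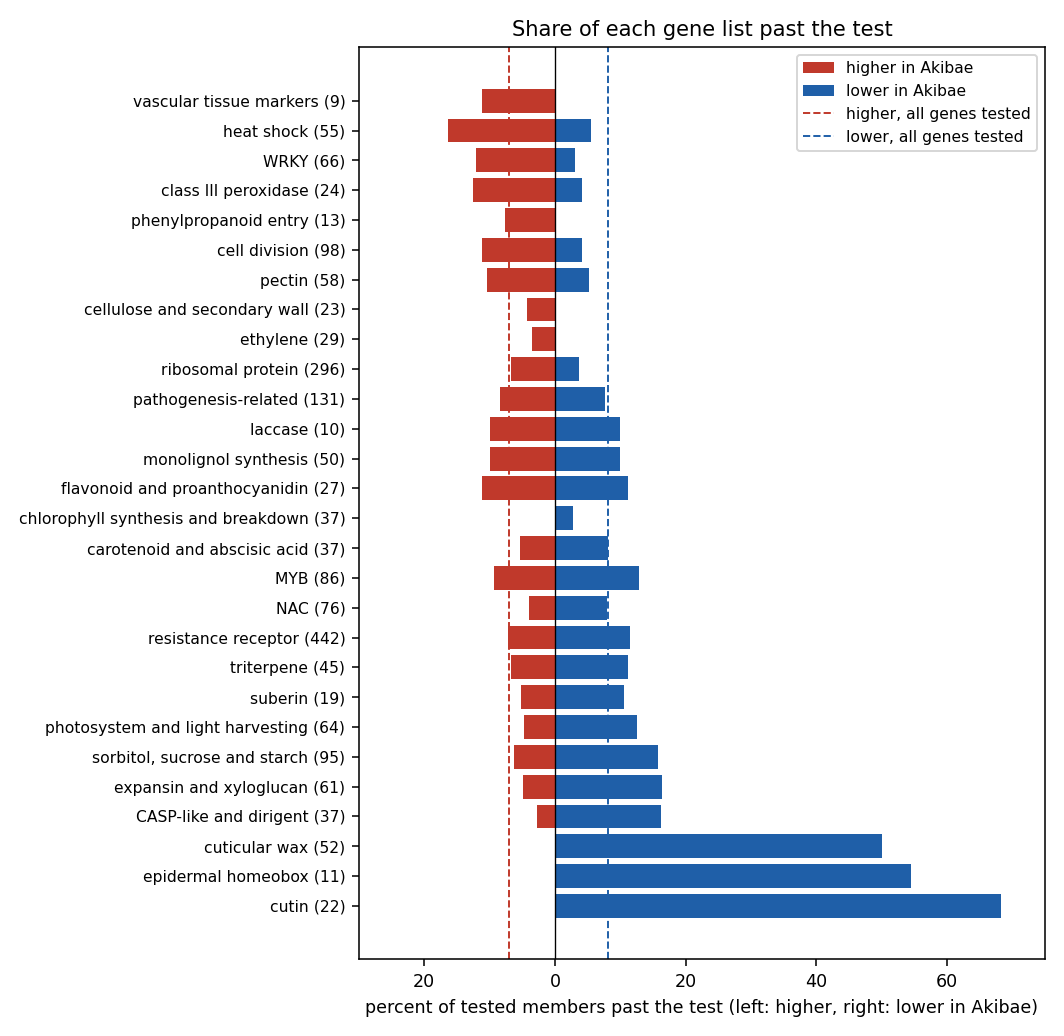
For each gene list with at least 9 members tested, bars give the percent of tested members that were higher (left, red) or lower (right, blue) in Akibae, with dashed lines at the 6.99% and 8.09% of all genes. Cutin, epidermal homeobox and cuticular wax have the longest blue bars and no red bar, and no other bar is as long.

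Cutin had the largest share of lower genes among the lists with at least 9 members tested. Of 38 listed genes 22 were tested, and 15 of them were lower and 0 higher in Akibae, with a median log2 fold change of -2.72. Among the genes that make cutin monomers 9 of 12 were lower, and among those that export or join them 6 of 10. The summed level of the cutin genes was 323, 271 and 279 CPM in the Akibae libraries, against 1602, 1610.3 and 1549 CPM in the CuiYu libraries. The Akibae sums were all below the CuiYu sums, with little spread inside either variety.

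The steepest difference was in a gene named after the fatty acid hydroxylase CYP86A22, listed here by that name among the genes that make cutin monomers. This gene, gene23333 (chromosome 6, 9002661 to 9005054), had 0, 0.0798 and 0 CPM in the Akibae libraries, against 257, 279 and 305 CPM in the CuiYu libraries. The only Akibae read was in replicate 2, giving a CuiYu to Akibae ratio of 10868 (95% counting interval 1950.1 to 429279) (adjusted p = 1.7e-05). HOTHEAD, which in Arabidopsis oxidises hydroxylated fatty acids to the dicarboxylic acids of cutin, had 0, 0 and 0.300 CPM in the Akibae libraries, against 109.7, 117 and 94.6 CPM in the CuiYu libraries (gene25700, log2 fold change -9.90 ± 1.08 SE, adjusted p = 0.00020). The long-chain acyl-CoA synthetase LACS1, which activates fatty acids for both cutin and wax, fell to a lesser degree, to 19.1, 20.5 and 25.1 CPM in the Akibae libraries, against 232, 254 and 146 CPM in the CuiYu libraries (gene13555, log2 fold change -3.29 ± 0.38 SE, adjusted p = 0.00028). The 3 Akibae libraries lay below all 3 CuiYu libraries for each of these genes, and Akibae replicate 3 held all Akibae reads of HOTHEAD gene25700.

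Later steps showed the same direction. GPAT6 and GPAT8 join cutin acids to glycerol. GPAT6 had 2.70, 1.84 and 1.88 CPM in the Akibae libraries, against 37.4, 33.3 and 28.1 CPM in the CuiYu libraries (gene19410, log2 fold change -3.94 ± 0.44 SE, adjusted p = 0.00024). GPAT8 had 51.1, 46.8 and 40.6 CPM in the Akibae libraries, against 260.3, 248 and 262 CPM in the CuiYu libraries (gene32439, log2 fold change -2.48 ± 0.28 SE, adjusted p = 0.00025). DEFECTIVE IN CUTICULAR RIDGES (DCR), an acyltransferase needed for cutin in Arabidopsis, had 1.85, 1.12 and 2.55 CPM in the Akibae libraries, against 105, 103 and 87.8 CPM in the CuiYu libraries at gene32423 (log2 fold change -5.73 ± 0.57 SE, adjusted p = 0.00011). None of the Akibae values of these genes reached the lowest CuiYu value. The other DCR-named genes did not pass the test. Gene19417 leaned the opposite way, with 24.5, 12.8 and 5.93 CPM in the Akibae libraries and 0.766, 0.828 and 2.58 CPM in the CuiYu libraries (adjusted p = 0.12). Gene10233 had a log2 fold change of 0.89 (adjusted p = 0.74) and gene18204 one of -1.05 (adjusted p = 0.31).

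Transport and assembly of cutin followed. ABCG32, a transporter that carries cutin precursors out of the epidermal cell in Arabidopsis, had 6.24, 5.90 and 3.38 CPM in the Akibae libraries, against 107, 115 and 112 CPM in the CuiYu libraries at gene20409 (log2 fold change -4.43 ± 0.39 SE, adjusted p = 5.3e-05). The other copy was at 82.1, 50.9 and 49.4 CPM in the Akibae libraries and 24.1, 4.44 and 7.37 CPM in the CuiYu libraries and did not pass (gene22538, adjusted p = 0.20). The GDSL esterase/lipase LTL1 had 0.771, 0.559 and 0.300 CPM in the Akibae libraries, against 106, 128 and 164 CPM in the CuiYu libraries at gene39828 (log2 fold change -7.91 ± 1.18 SE, adjusted p = 0.0014). A neighbouring LTL1 gene was also lower (gene39827, log2 fold change -4.48), but its call ended without Akibae replicate 1 (adjusted p = 0.077) or Akibae replicate 2 (0.064), and its log2 fold change was -6.38 without Akibae replicate 3. BODYGUARD3, of a family needed for an intact cuticle in Arabidopsis, was lower at gene10813 (log2 fold change -2.54, adjusted p = 0.0062). The number of lower cutin genes was 14 to 16 when 1 library was left out.

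Genes of cuticular wax were lower too. In this list 52 of 90 genes were tested, 26 were lower and 0 higher in Akibae, and the median log2 fold change was -1.06. The lower genes were 17 of 33 in fatty acid elongation, 7 of 15 in the forming of alkanes, alcohols and esters, and 2 of 4 in export. Summed over the list, levels were 538, 527 and 541 CPM in the Akibae libraries, against 1712, 1680.5 and 1436 CPM in the CuiYu libraries.

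Elongation starts with the 3-ketoacyl-CoA synthases (KCS), which add carbon units to fatty acids and so set the chain length of waxes. KCS10 at gene10410 had 0.231, 0.160 and 3.001 CPM in the Akibae libraries, against 451, 482 and 379 CPM in the CuiYu libraries (log2 fold change -8.57 ± 1.14 SE, adjusted p = 0.00065). KCS6, the main wax synthase of Arabidopsis stems, had 0, 0 and 0.225 CPM in the Akibae libraries, against 54.7, 59.1 and 56.98 CPM in the CuiYu libraries at gene8119, a CuiYu to Akibae ratio of 736 (95% counting interval 252 to 3572). A second KCS6 gene had 0 CPM in all 3 Akibae libraries, against 6.61, 18.1 and 5.75 CPM in the CuiYu libraries (gene8122, at least 130.0-fold lower against a floor of 3 reads over the 3 libraries). The enoyl-CoA reductase that ends each elongation cycle had 52.3, 45.6 and 38.7 CPM in the Akibae libraries, against 196, 216 and 169.5 CPM in the CuiYu libraries (gene3565, log2 fold change -2.09 ± 0.38 SE, adjusted p = 0.0043). A row of 3 KCS19 genes on chromosome 7 (14498639 to 14541549) had no read in any Akibae library and were at least 51.2-fold, at least 23.6-fold and at least 185-fold lower. For KCS10 the fold was larger without Akibae replicate 3, where the log2 fold change was -11.06.

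Downstream of elongation, ECERIFERUM 1 (CER1) forms alkanes, the main waxes of many fruit. CER1 was lower at 5 genes, of which one had 0, 0 and 0.900 CPM in the Akibae libraries, against 47.7, 30.6 and 42.3 CPM in the CuiYu libraries (gene30160, log2 fold change -6.99 ± 1.17 SE, adjusted p = 0.0027). Of these genes, 3 are neighbours on chromosome 7 between 5237329 and 5372230. WSD1, the enzyme that joins acids and alcohols to wax esters in Arabidopsis, had 0.694, 0.399 and 3.83 CPM in the Akibae libraries, against 54.9, 66.2 and 63.98 CPM in the CuiYu libraries (gene29338, log2 fold change -5.22 ± 0.96 SE, adjusted p = 0.0046). The alcohol-forming acyl-CoA reductase had 15.2, 13.9 and 8.10 CPM in the Akibae libraries, against 129.6, 155 and 84.6 CPM in the CuiYu libraries (gene14546, log2 fold change -3.31 ± 0.65 SE, adjusted p = 0.0064). Akibae replicate 3 held the highest Akibae values of CER1 and WSD1 and was still below every CuiYu library. Without it gene30160 had no Akibae read, and the log2 fold change of gene29338 was -6.80.

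Export of wax involves the GPI-anchored lipid transfer protein LTPG1 and ABCG transporters. LTPG1 (gene21123, chromosome 16, 2981921 to 2985960) had 0 CPM in all 3 Akibae libraries, against 19.1, 14.7 and 11.6 CPM in the CuiYu libraries, which is at least 197-fold lower in Akibae (adjusted p = 0.00023). ABCG11, a transporter of cutin and wax lipids, was lower at gene30928 (log2 fold change -3.74 ± 0.95 SE, adjusted p = 0.023), a call that only the fit without CuiYu replicate 3 kept among the leave-one-out fits (adjusted p from 0.053 to 0.089 in the others). Its copy gene30640 leaned the other way without passing, with 3.93, 11.7 and 85.4 CPM in the Akibae libraries and 1.74, 0.753 and 1.11 CPM in the CuiYu libraries (adjusted p = 0.072).

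Non-specific lipid transfer proteins, small secreted proteins that bind lipids in the wall, were looked at after the list results were seen. Of 26 genes with a read 12 were tested, 2 were higher and 5 lower, and the median log2 fold change was -0.06. One of the lower genes, gene38249 (chromosome 4, 1684320 to 1685206), had 17.2, 59.7 and 84.5 CPM in the Akibae libraries, against 3898, 5478 and 3033 CPM in the CuiYu libraries (log2 fold change -6.26 ± 1.06 SE, adjusted p = 0.0030). Another, gene20898, had 8.17, 12.3 and 38.6 CPM in the Akibae libraries, against 1682, 1809 and 1811 CPM in the CuiYu libraries (log2 fold change -6.49 ± 0.82 SE, adjusted p = 0.00050), and lies in a row of 3 lower genes on chromosome 12 (16537683 to 16544039). Every Akibae library was far below every CuiYu library for both genes. Without Akibae replicate 3 the log2 fold change of gene20898 was -7.44.

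Most listed markers of the epidermis moved with the cuticle genes. The class IV homeodomain-leucine zipper factors, which specify and maintain the epidermis, had 6 of 11 tested members lower and 0 higher, with a median log2 fold change of -2.17. Their summed level was 61.2, 80.9 and 99.1 CPM in the Akibae libraries, against 155, 189 and 173 CPM in the CuiYu libraries, and the varieties did not overlap. PROTODERMAL FACTOR 2, an epidermal identity factor of Arabidopsis, had 0 CPM in all 3 Akibae libraries, against 3.20, 1.96 and 3.46 CPM in the CuiYu libraries (gene187, at least 37.4-fold lower, adjusted p = 0.00041). ROC3 had 2.85, 1.99 and 1.73 CPM in the Akibae libraries, against 17.3, 15.5 and 16.8 CPM in the CuiYu libraries (gene22078, log2 fold change -2.91 ± 0.30 SE, adjusted p = 0.00015). HDG1 had 16.2, 18.03 and 29.9 CPM in the Akibae libraries, against 46.7, 65.8 and 54.5 CPM in the CuiYu libraries (gene40832, log2 fold change -1.38 ± 0.29 SE, adjusted p = 0.0086). In whole skin a smaller number of epidermal cells and less RNA of these genes in each cell cannot be told apart, and the part of the epidermal share in the cuticle results was not tested.

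**Figure D3:**
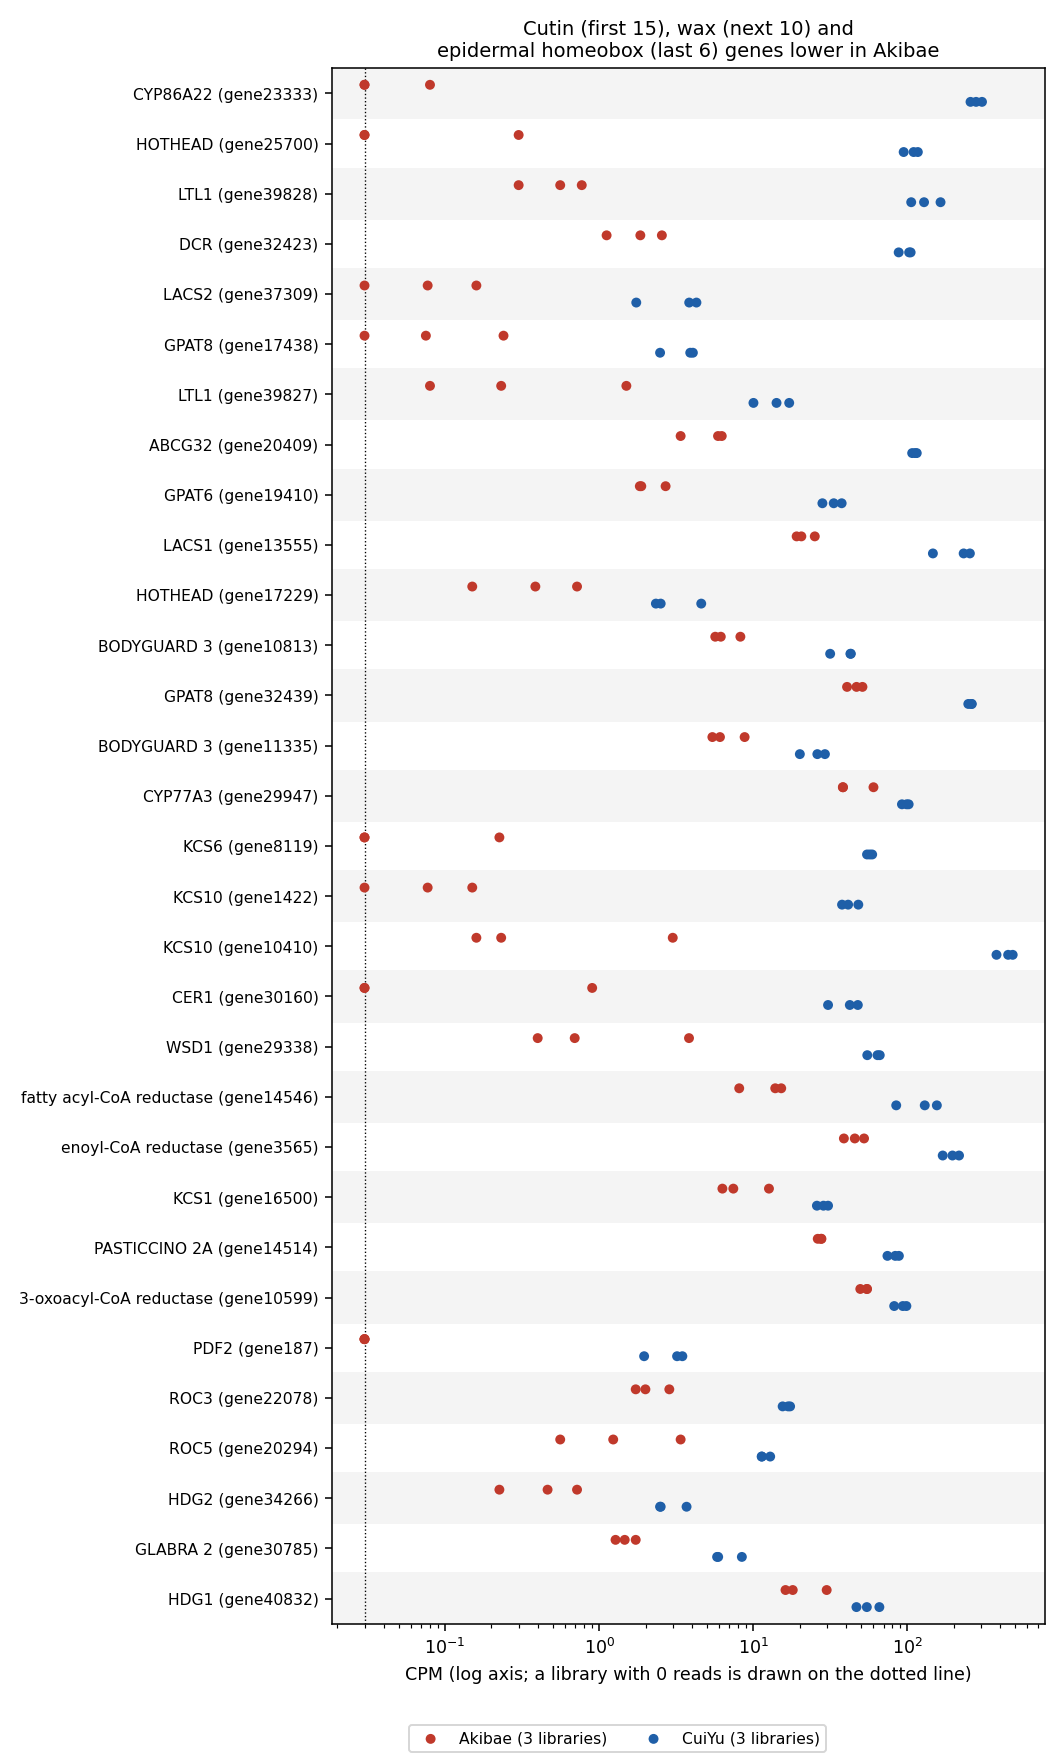
Levels in CPM (log axis) of the 15 lower cutin genes, the 10 lower wax genes with the highest CuiYu mean and the 6 lower epidermal homeobox genes, 1 point a library, with Akibae in red and CuiYu in blue. For every gene shown the 3 Akibae points lie to the left of the 3 CuiYu points, and several genes have Akibae points at 0 reads, drawn on the dotted line.

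Among MYB factors, the family that holds many regulators of skin polymers, 8 of 86 tested genes were higher and 11 lower in Akibae (9.30% and 12.8%, against 6.99% and 8.09% of all genes tested). This balance turned to 21 higher and 12 lower with the 6 libraries alone and to 14 and 12 by DESeq2, and with any 1 of the 6 libraries left out 4 to 6 were higher and 10 or 11 lower. MYB39, which in Arabidopsis roots switches on suberin genes, was lower at both genes of that name that were called. Gene11684 had 0, 0 and 0.300 CPM in the Akibae libraries, against 20.4, 22.6 and 14.8 CPM in the CuiYu libraries (log2 fold change -7.43 ± 0.79 SE, adjusted p = 0.00017). Gene24375 had a log2 fold change of -5.13 (adjusted p = 8.3e-05). Myb-related protein 306 was lower at 3 genes, one of them at 4.62, 7.18 and 18.7 CPM in the Akibae libraries, against 68.1, 76.7 and 52.4 CPM in the CuiYu libraries (gene18632, log2 fold change -2.69 ± 0.48 SE, adjusted p = 0.0039). All Akibae libraries were below all CuiYu libraries for these 5 genes. MYB36, which in Arabidopsis roots turns on genes of the Casparian strip, was higher at 3 genes, among them gene24976 with 18.6 ± 1.74 CPM in Akibae and 8.58 ± 0.769 CPM in CuiYu (SD, n = 3 each, log2 fold change 1.12 ± 0.22 SE, adjusted p = 0.0067). MYB86 gene28822 was higher, with a ratio of Akibae to CuiYu of 203 (95% counting interval 35.95 to 8048), while MYB86 gene15522 was lower (log2 fold change -2.95). MYB1R1 (gene13235) had no read in Akibae and was at least 61.6-fold lower. Without Akibae replicate 3 gene11684 had no Akibae read, and the log2 fold changes were -3.48 for gene18632 and -3.60 for gene15522.

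Few suberin genes passed the test, although most of their log2 fold changes were positive. Of 24 listed genes 19 were tested, 17 had a positive and 2 a negative log2 fold change, and the median was 2.01. Called were 1 higher and 2 lower (5.26% and 10.5%, against 6.99% and 8.09% of all genes tested). Their summed level leaned the other way, at 391, 309 and 333 CPM in the Akibae libraries, against 620, 546 and 468 CPM in the CuiYu libraries. Most of the CuiYu sum came from the 2 genes called lower. Their means were 293 and 205 CPM in CuiYu, against 36.4 and 67.4 CPM in Akibae. For 13 of the 19 genes the Akibae libraries lay wholly above the CuiYu libraries (22.0% of all genes tested did). CuiYu replicate 1 was above the other CuiYu libraries in 16 of 19 (in 9267 of all 26307 genes tested). Fitting the 6 libraries of Akibae and CuiYu alone called 11 suberin genes higher, DESeq2 called 5, and each fit that left out 1 library called 1.

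The suberin hydroxylase CYP86A1 had 21.1, 12.6 and 11.3 CPM in the Akibae libraries and 4.87, 0.978 and 1.55 CPM in the CuiYu libraries and did not pass (gene22741, log2 fold change 2.59 ± 1.23 SE, adjusted p = 0.19). A CYP86B1 gene, for the hydroxylation of very-long-chain suberin acids, was at 45.2, 37.9 and 17.6 CPM in the Akibae libraries and 8.49, 1.28 and 2.14 CPM in the CuiYu libraries (gene4552, adjusted p = 0.12). In both genes CuiYu replicate 1 was several times the other CuiYu libraries, and the ranges of the varieties did not overlap. The gene called higher was an omega-hydroxypalmitate O-feruloyl transferase, the enzyme that adds ferulic acid to suberin monomers, with 2.77, 1.04 and 5.03 CPM in the Akibae libraries, against 0, 0.226 and 0 CPM in the CuiYu libraries (gene3755). Its 3 CuiYu reads, all in CuiYu replicate 2, give a ratio of Akibae to CuiYu of 41.04 (95% counting interval 13.7 to 202) (adjusted p = 0.0096). Lower were KCS20, an elongase of suberin and wax chains in Arabidopsis, with 40.998, 35.2 and 32.9 CPM in the Akibae libraries, against 302, 323 and 253 CPM in the CuiYu libraries (gene40020, log2 fold change -3.01 ± 0.44 SE, adjusted p = 0.0013), and a second CYP86B1 gene, with 64.04, 48.4 and 89.9 CPM in the Akibae libraries, against 225, 202 and 188 CPM in the CuiYu libraries (gene6685, log2 fold change -1.60 ± 0.39 SE, adjusted p = 0.019). The CYP86B1 call ended without Akibae replicate 1, Akibae replicate 2, CuiYu replicate 1 or CuiYu replicate 2, with adjusted p from 0.053 to 0.083.

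Cork regulators leaned the same way as the suberin genes without passing. All 4 tested of 8 listed had positive log2 fold changes, with a median of 2.42. All 4 had Akibae libraries wholly above CuiYu libraries, as did 22.0% of all genes tested. The summed level was 22.5, 24.3 and 21.9 CPM in the Akibae libraries, against 7.87, 3.46 and 5.01 CPM in the CuiYu libraries. WOX4, a homeobox factor of the cambium in Arabidopsis, had 4.24, 4.31 and 3.98 CPM in the Akibae libraries and 1.39, 0.452 and 0.958 CPM in the CuiYu libraries (gene1147, log2 fold change 2.15 ± 0.74 SE, adjusted p = 0.079). The other 3 bear the name RAX3, an Arabidopsis MYB factor also called MYB84, and had adjusted p from 0.11 to 0.15. With the 6 libraries alone all 4 were called. The listed cork regulators with a read in Akibae or CuiYu all bore the names RAX2, RAX3 or WOX4, so the lean covers no other cork regulator.

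**Figure D4:**
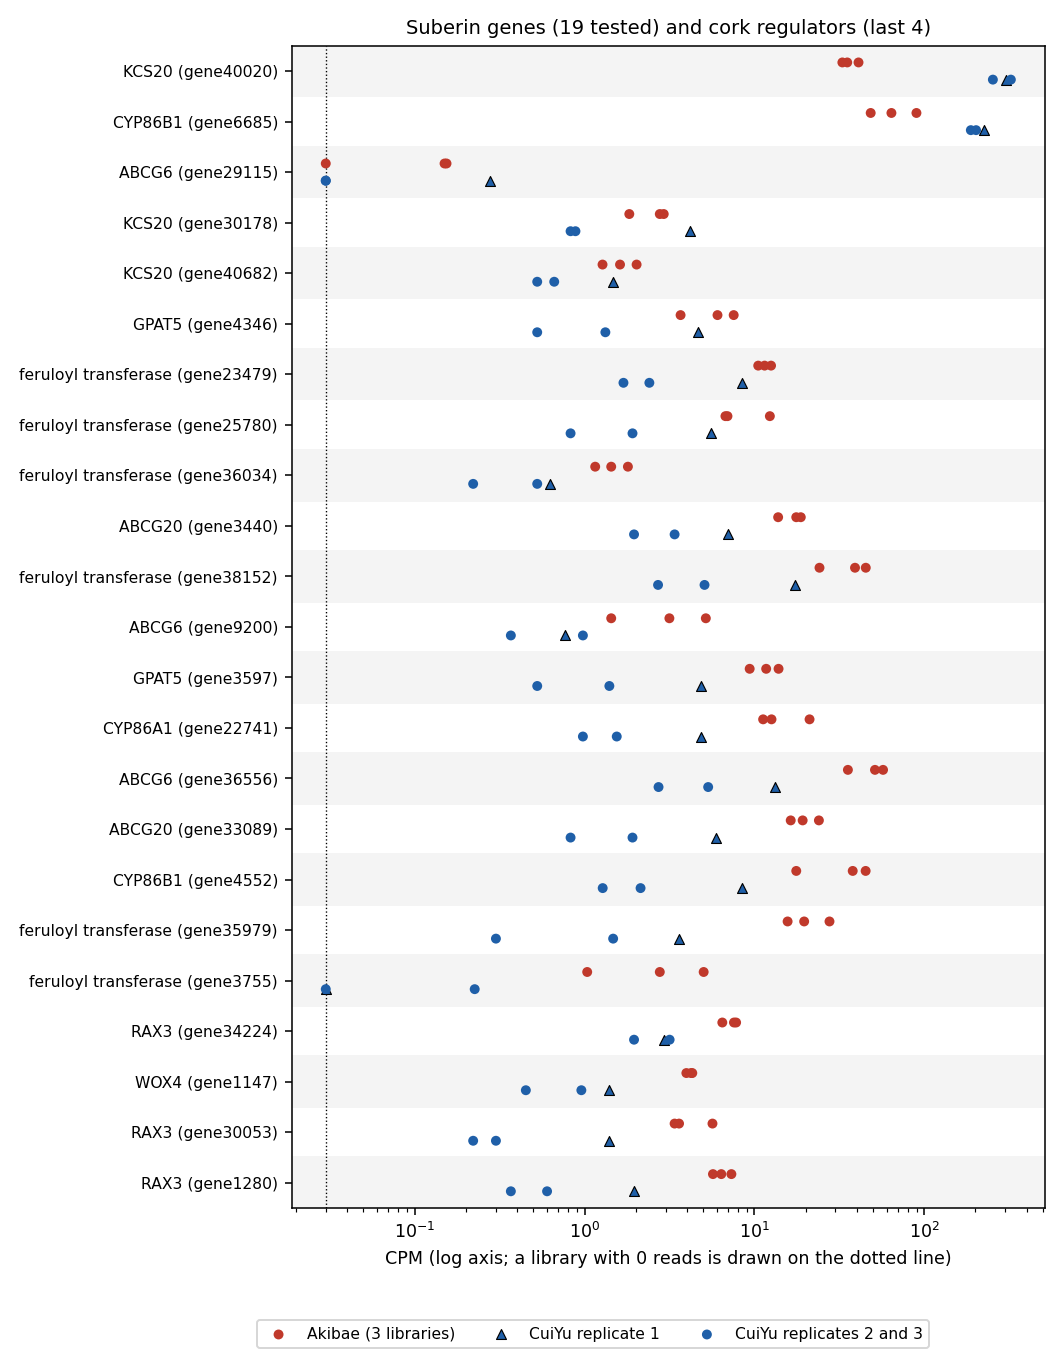
CPM (log axis) of the 19 tested suberin genes and 4 tested cork regulators in each Akibae (red) and CuiYu (blue) library, with CuiYu replicate 1 drawn as a triangle. For most genes the red points lie to the right of the blue ones and the blue triangle is the nearest to them.

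CASP-like proteins, relatives of the membrane proteins that place the Casparian strip, and dirigent proteins, which guide lignan and lignin coupling, had 1 of 37 tested members higher and 6 lower. These were 2.70% and 16.2%, against 6.99% and 8.09% of all genes tested. CASP-like 2A1 had 0 CPM in all 3 Akibae libraries, against 20.1, 22.6 and 19.6 CPM in the CuiYu libraries and was at least 269-fold lower (gene15739, adjusted p = 0.0011). CASP-like 1E2 (gene4909) and dirigent protein 9 (gene5764) also had no read in Akibae, and were at least 77.9-fold and at least 21.4-fold lower. CASP-like 5B2 was higher at 6.01, 5.27 and 7.28 CPM in the Akibae libraries, against 0.487, 1.51 and 1.55 CPM in the CuiYu libraries (gene3623, log2 fold change 2.38 ± 0.58 SE, adjusted p = 0.019), a call that ended without CuiYu replicate 1 (adjusted p = 0.066) or CuiYu replicate 2 (0.051).

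The phenylpropanoid pathway supplies lignin, the ferulic acid of suberin and the flavonoids. At its entry, with a median log2 fold change of 1.03, 1 of 13 tested genes was higher and 0 lower (7.69% and 0%, against 6.99% and 8.09% of all genes tested). That gene, phenylalanine ammonia-lyase PAL1, had 94.1, 122 and 75.2 CPM in the Akibae libraries, against 25.1, 23.7 and 22.8 CPM in the CuiYu libraries (gene3545, log2 fold change 2.02 ± 0.48 SE, adjusted p = 0.017). The libraries did not overlap, yet the call ended without Akibae replicate 2 or any 1 of the CuiYu libraries, with adjusted p from 0.060 to 0.066.

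Monolignol genes moved in both directions, with 5 of 50 higher and 5 lower (10% each way, against 6.99% and 8.09% of all genes tested). The median was 0.23. With 1 library left out, 3 to 6 were higher (fewest without Akibae replicate 2 or CuiYu replicate 2) and 3 to 5 lower (fewest without Akibae replicate 1). Caffeoylshikimate esterase, which releases caffeate for lignin in Arabidopsis, did so between its own copies. Gene950 had 249.5, 229 and 150.0 CPM in the Akibae libraries, against 56.3, 55.9 and 69.6 CPM in the CuiYu libraries (log2 fold change 1.79 ± 0.21 SE, adjusted p = 0.00028), and gene36949 had 8.86, 6.62 and 8.48 CPM in the Akibae libraries, against 99.2, 133 and 85.1 CPM in the CuiYu libraries (log2 fold change -3.73 ± 0.53 SE, adjusted p = 0.00099). The Akibae libraries of these copies lay on opposite sides of the CuiYu libraries. CYP84A1, the ferulate 5-hydroxylase of syringyl lignin, was read in Akibae alone, at 0.539, 1.99 and 3.90 CPM in the Akibae libraries, against 0 CPM in all 3 CuiYu libraries (gene31267, at least 29.7-fold higher, adjusted p = 0.012).

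Laccases and class III peroxidases oxidise monolignols in the wall so that they couple to lignin. Of 10 laccases tested 1 was higher and 1 lower (10% each way), and of 24 peroxidases 3 were higher and 1 lower (12.5% and 4.17%). Over all genes tested the shares were 6.99% and 8.09%. The medians were 2.02 for the laccases and 1.34 for the peroxidases. The summed level of the peroxidases leaned the other way, at 2869.8, 2968 and 2644 CPM in the Akibae libraries, against 6666, 10936 and 5748 CPM in the CuiYu libraries. Without Akibae replicate 1, Akibae replicate 2, CuiYu replicate 2 or CuiYu replicate 3 only 1 peroxidase was higher. Laccase-9 had 19.7, 19.6 and 19.4 CPM in the Akibae libraries, against 1.18, 0.527 and 1.47 CPM in the CuiYu libraries (gene7199, log2 fold change 4.19 ± 0.73 SE, adjusted p = 0.0034), with nearly equal Akibae libraries. Laccase-6 had 0.154, 0 and 0 CPM in the Akibae libraries, against 6.96, 6.85 and 8.18 CPM in the CuiYu libraries, a CuiYu to Akibae ratio of 142 (95% counting interval 39.05 to 1180.2), but its call (gene27842, adjusted p = 0.043) ended whichever library was left out, with adjusted p from 0.085 to 0.14. Cationic peroxidase 1 was higher at 8.94, 30.5 and 27.2 CPM in the Akibae libraries, against 1.18, 0.753 and 1.03 CPM in the CuiYu libraries (gene21781, log2 fold change 4.47 ± 0.57 SE, adjusted p = 0.00052). Peroxidase 15 was split, with gene2401 higher (log2 fold change 2.48 ± 0.72 SE, adjusted p = 0.040) and gene2397 without an Akibae read (at least 32.3-fold lower). The gene2401 call was lost in every leave-one-out fit but that without Akibae replicate 3 (adjusted p from 0.058 to 0.21), and without Akibae replicate 2 its log2 fold change was 1.26.

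Flavonoid genes were also split, 3 of 27 higher and 3 lower (11.1% each way, against 6.99% and 8.09% of all genes tested). Flavonol synthase, which makes flavonols from dihydroflavonols, had 0, 0.160 and 0.150 CPM in the Akibae libraries, against 17.9, 23.03 and 17.8 CPM in the CuiYu libraries (gene33758, log2 fold change -7.44 ± 1.18 SE, adjusted p = 0.0020). Dihydroflavonol 4-reductase, which takes the same substrate towards anthocyanins and proanthocyanidins, had 131, 115 and 132 CPM in the Akibae libraries, against 25.5, 30.4 and 20.1 CPM in the CuiYu libraries (gene7584, log2 fold change 2.31 ± 0.31 SE, adjusted p = 0.00069). Another dihydroflavonol 4-reductase gene was called lower at a level near the limit of counting, with 0 CPM in all 3 Akibae libraries, against 0.139, 0.226 and 0.0737 CPM in the CuiYu libraries (gene6629, adjusted p = 0.036). Anthocyanidin reductase was lower at gene5036 (log2 fold change -4.87 ± 0.73 SE, adjusted p = 0.0015) and higher at gene40480 (log2 fold change 3.63 ± 0.71 SE, adjusted p = 0.0062, and a log2 fold change of 5.09 without CuiYu replicate 1).

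Triterpenes, which lie in the wax of pome fruit, are made by oxidosqualene cyclases. Of 45 tested genes 3 were higher and 5 lower (6.67% and 11.1%, against 6.99% and 8.09% of all genes tested), with a median of -0.41. Only 1 or 2 of the lower calls were left whichever library was left out, with 1 to 3 higher, and the 6 libraries alone gave 13 lower. A beta-amyrin synthase had 87.5, 51.1 and 109 CPM in the Akibae libraries, against 377, 400.3 and 396 CPM in the CuiYu libraries (gene30674, log2 fold change -2.24 ± 0.60 SE, adjusted p = 0.029). Another of the same name was lower by more, at 0.462, 1.36 and 1.05 CPM in the Akibae libraries, against 23.9, 18.1 and 8.48 CPM in the CuiYu libraries (gene26782, log2 fold change -4.13 ± 0.79 SE, adjusted p = 0.0060), and a further one was higher at a low level (gene38944, log2 fold change 4.31 ± 1.23 SE, adjusted p = 0.038). The calls of gene30674 and gene38944 each ended in 5 of the 6 leave-one-out fits, all but that without Akibae replicate 3, with adjusted p from 0.070 to 0.12 and from 0.072 to 0.13, and without CuiYu replicate 1 the log2 fold change of gene38944 was 5.47.

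Light-harvesting proteins, the chlorophyll-binding antennae of both photosystems, were lower in 8 of 22 tested genes and higher in 0, with a median of -2.21 and 18 of 22 with Akibae wholly below CuiYu (21.4% of all genes tested). Chlorophyll a-b binding protein 6 had 4.70, 4.07 and 4.50 CPM in the Akibae libraries, against 26.8, 27.8 and 33.1 CPM in the CuiYu libraries (gene25850, log2 fold change -2.72 ± 0.35 SE, adjusted p = 0.00056). A pair of genes named chlorophyll a-b binding protein 3, gene11855 and gene11856, had log2 fold changes of -3.80 and -4.38, the second being -5.16 without Akibae replicate 1. The medians of the photosystem I and II cores were -0.99 and -0.28, with 17 and 14 negative log2 fold changes. Yet 2 of 20 photosystem I and 1 of 22 photosystem II genes were called higher and 0 lower. The higher calls made up 10% and 4.55%, against 6.99% of all genes tested. With any 1 library left out 1 and 0 of these were called higher, and without Akibae replicate 3 there were 2 and 1 called lower. Leaving out 1 library left 4 to 8 light-harvesting genes lower, and the 6 libraries alone gave 13.

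Genes of chlorophyll making and breaking showed 1 lower and 0 higher of 37 (2.70% and 0%, against 8.09% and 6.99% of all genes tested). The exception was a magnesium-chelatase subunit ChlH gene, whose protein puts magnesium into the chlorophyll ring, with 0, 0 and 0.300 CPM in the Akibae libraries, against 16.3, 11.9 and 22.4 CPM in the CuiYu libraries (gene33365, log2 fold change -7.24 ± 1.07 SE, adjusted p = 0.0013). Akibae replicate 3 held all its Akibae reads. Carotenoid and abscisic acid genes had 2 higher and 3 lower of 37 (5.41% and 8.11%, against 6.99% and 8.09% of all genes tested). Phytoene synthase, the first enzyme of carotenoid synthesis, was higher at gene33930 with 109, 144 and 67.8 CPM in the Akibae libraries, against 13.1, 18.6 and 17.9 CPM in the CuiYu libraries (log2 fold change 2.69 ± 0.34 SE, adjusted p = 0.00052). Its copy gene8344 was lower (log2 fold change -4.50, adjusted p = 0.0042). NCED1, the 9-cis-epoxycarotenoid dioxygenase that commits carotenoids to abscisic acid, had 7.63, 1.04 and 1.73 CPM in the Akibae libraries, against 189.7, 33.1 and 22.7 CPM in the CuiYu libraries (gene7046, log2 fold change -4.56 ± 1.11 SE, adjusted p = 0.019). CuiYu replicate 1 was the highest CuiYu library: without it the log2 fold change was -3.02 (adjusted p = 0.084), and the call also ended without Akibae replicate 2 (0.075) or Akibae replicate 3 (0.061) and moved to a log2 fold change of -5.88 without Akibae replicate 1. NCED6, a dioxygenase of the same name, was called higher at a low level (gene15552, adjusted p = 0.015). It had 1.08, 1.52 and 1.65 CPM in the Akibae libraries, against 0.139, 0 and 0 CPM in the CuiYu libraries. With 1 library left out, 0 or 1 abscisic acid genes were called higher.

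Ethylene, the ripening hormone, gave few calls. Of 29 tested genes of its synthesis and signalling 1 was higher and 0 lower (3.45% and 0%, against 6.99% and 8.09% of all genes tested). The gene was a CTR1 kinase, a brake on ethylene signalling in Arabidopsis, with 108, 92.2 and 111 CPM in the Akibae libraries, against 65.2, 61.3 and 69.7 CPM in the CuiYu libraries (gene6333, log2 fold change 0.67 ± 0.16 SE, adjusted p = 0.018), and this call held without Akibae replicate 2 or CuiYu replicate 3 and was lost without any 1 of the others (adjusted p from 0.055 to 0.085). ACC oxidase 1, the enzyme of the last step of synthesis, had 85.8, 352 and 176 CPM in the Akibae libraries and 12.6, 0.677 and 12.5 CPM in the CuiYu libraries (gene9128), and did not pass (adjusted p = 0.13), with a wide spread in both varieties that did not overlap.

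Of 61 wall-loosening genes 10 were called lower and 3 higher (16.4% and 4.92%, against 8.09% and 6.99% of all genes tested). The median was close to 0, with 30 positive and 31 negative log2 fold changes. Leaving out 1 library gave 4 to 7 lower (fewest without Akibae replicate 1) and 2 higher, and the 6 libraries alone gave 12 lower and 10 higher. Expansin-A15, of a family that loosens the cell wall in growth, had 1.93, 15.001 and 5.03 CPM in the Akibae libraries, against 329, 968 and 461 CPM in the CuiYu libraries (gene11692, log2 fold change -6.32 ± 1.36 SE, adjusted p = 0.010), and the log2 fold change was -7.39 without Akibae replicate 2. Expansin-A8 was lower at 10.8, 31.7 and 55.5 CPM in the Akibae libraries, against 391, 448 and 291 CPM in the CuiYu libraries (gene22815, log2 fold change -3.53 ± 0.83 SE, adjusted p = 0.016), a call that ended without Akibae replicate 1 (adjusted p = 0.060) or Akibae replicate 2 (0.067), with a log2 fold change of -4.15 without Akibae replicate 3. Xyloglucan endotransglucosylases, which cut and rejoin hemicellulose, made up 7 of the lower genes although the median of that family was 0.26, and leaving out 1 library left 3 to 5 of those calls. One gene of that family was higher, at 4.55, 9.73 and 0.450 CPM in the Akibae libraries, against 0.0696, 0.0753 and 0 CPM in the CuiYu libraries (gene22158, adjusted p = 0.0052).

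Pectin genes had 6 of 58 higher and 3 lower (10.3% and 5.17%, against 6.99% and 8.09% of all genes tested). With 1 library left out 5 were higher without Akibae replicate 3 and 1 or 2 without any other, and 0 to 3 lower (fewest without CuiYu replicate 2). A polygalacturonase, which cuts pectin, was higher at 6.63, 2.23 and 8.33 CPM in the Akibae libraries, against 0.139, 0 and 0.147 CPM in the CuiYu libraries (an added locus with no gene number, log2 fold change 5.76 ± 0.84 SE, adjusted p = 0.0012). Inhibitors of polygalacturonase, wall proteins that act against fungal enzymes, were higher at 2 neighbouring genes. Gene8668 had 227, 182 and 95.1 CPM in the Akibae libraries, against 2.09, 3.69 and 17.99 CPM in the CuiYu libraries (log2 fold change 4.40 ± 1.23 SE, adjusted p = 0.035). Gene8667 had 137, 153 and 112 CPM in the Akibae libraries, against 6.33, 9.63 and 11.6 CPM in the CuiYu libraries (log2 fold change 3.87 ± 0.94 SE, adjusted p = 0.019). Both sets of libraries stood apart by several fold, although the call of gene8668 ended without Akibae replicate 1 or 2 or CuiYu replicate 1 or 2 (adjusted p from 0.077 to 0.13) and that of gene8667 without Akibae replicate 2 or any 1 of the CuiYu libraries (adjusted p from 0.051 to 0.082). Without CuiYu replicate 3 the log2 fold change of gene8668 was 5.86.

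Starch and sugar enzymes had 6 of 95 higher and 15 lower (6.32% and 15.8%, against 6.99% and 8.09% of all genes tested). Starch enzymes alone had 4 of 52 higher and 10 lower (7.69% and 19.2%). A beta-amylase, which releases maltose from starch, had 0.617, 0.718 and 0.900 CPM in the Akibae libraries, against 51.996, 50.5 and 52.7 CPM in the CuiYu libraries (gene33545, log2 fold change -6.10 ± 0.26 SE, adjusted p = 8.9e-07). Alpha-glucan phosphorylase H, which removes glucose units from glucans as glucose phosphate, differed between copies. Gene22767 had 17.3, 17.5 and 17.3 CPM in the Akibae libraries, against 164, 157 and 187 CPM in the CuiYu libraries (log2 fold change -3.28 ± 0.29 SE, adjusted p = 5.3e-05), and gene30211 had 490.0, 342 and 288 CPM in the Akibae libraries, against 50.3, 87.2 and 124 CPM in the CuiYu libraries (log2 fold change 2.10 ± 0.47 SE, adjusted p = 0.013). The first was lower in every Akibae library than in any CuiYu library, and the second higher. Sorbitol dehydrogenase, which turns the transport sugar of pear into fructose, was lower at gene33408, with 0.462, 1.04 and 1.13 CPM in the Akibae libraries, against 9.81, 10.4 and 14.2 CPM in the CuiYu libraries (log2 fold change -3.70 ± 0.57 SE, adjusted p = 0.0016). The gene30211 call ended without Akibae replicate 1, CuiYu replicate 1 or CuiYu replicate 2, with adjusted p from 0.051 to 0.057, and leaving out 1 library left 5 to 7 starch genes lower and 0 to 3 higher (0 without Akibae replicate 1, CuiYu replicate 1 or CuiYu replicate 2).

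Heat shock genes, with a median of 0.07, had 9 of 55 higher and 3 lower (16.4% and 5.45%, against 6.99% and 8.09% of all genes tested). The higher ones were 8 small heat shock proteins, chaperones that bind unfolding proteins, and 1 heat shock cognate 70. The 17.3 kDa class II protein had 703, 375 and 8.55 CPM in the Akibae libraries, against 2.99, 1.13 and 1.18 CPM in the CuiYu libraries (gene1367, log2 fold change 7.66 ± 1.87 SE, adjusted p = 0.019). Akibae replicate 3 was far below the other Akibae libraries and above CuiYu, and the call ended without Akibae replicate 1 or any 1 of the CuiYu libraries, with adjusted p from 0.051 to 0.083 and log2 fold changes of 6.75 without Akibae replicate 1 and 8.27 without CuiYu replicate 1. A row of 3 class I genes of 18.1 kDa on chromosome 1 (5975689 to 5995525) was higher together, gene3659 at 91.6, 79.4 and 53.6 CPM in the Akibae libraries, against 18.6, 15.7 and 18.9 CPM in the CuiYu libraries (log2 fold change 2.08 ± 0.31 SE, adjusted p = 0.0014). The number of higher heat shock genes was 14 without Akibae replicate 3, 6 without Akibae replicate 2, and 3 or 4 without Akibae replicate 1 or any 1 of the CuiYu libraries. Heat shock 70 kDa protein 8 (gene35864) went the other way, with no read in Akibae (at least 89.8-fold lower).

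Of 131 pathogenesis-related genes 11 (8.40%) were higher and 10 (7.63%) lower, near the 6.99% and 8.09% of all genes tested. With 1 library left out 8 to 12 of the pathogenesis-related genes were higher and 4 to 7 lower (fewest lower without Akibae replicate 1 or 2). For this whole list the 6 libraries alone gave 26 higher and 15 lower. The MLP-like and Bet v 1 members were divided by name. All 6 called genes named MLP-like protein 328 were higher, and the called genes of the other names were lower. MLP-328 gene4369 had 88.3, 74.2 and 47.4 CPM in the Akibae libraries, against 2.78, 1.05 and 1.25 CPM in the CuiYu libraries (log2 fold change 5.35 ± 0.61 SE, adjusted p = 0.00025). MLP-like protein 34 had 50.01, 5.51 and 30.1 CPM in the Akibae libraries, against 660.4, 559 and 680.4 CPM in the CuiYu libraries (gene4360, log2 fold change -4.47 ± 0.77 SE, adjusted p = 0.0034). Major allergen Pru ar 1, of the pathogenesis-related class 10 family, had 0, 2.95 and 0 CPM in the Akibae libraries, against 57.7, 42.5 and 74.3 CPM in the CuiYu libraries (gene37651, log2 fold change -5.89 ± 1.44 SE, adjusted p = 0.019). Akibae replicate 2 held all Akibae reads of that allergen. Without Akibae replicate 3 its log2 fold change was -5.30, and without Akibae replicate 1 the call ended (adjusted p = 0.064). For MLP-like protein 34 the log2 fold change was -5.15 without Akibae replicate 1.

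**Figure D5:**
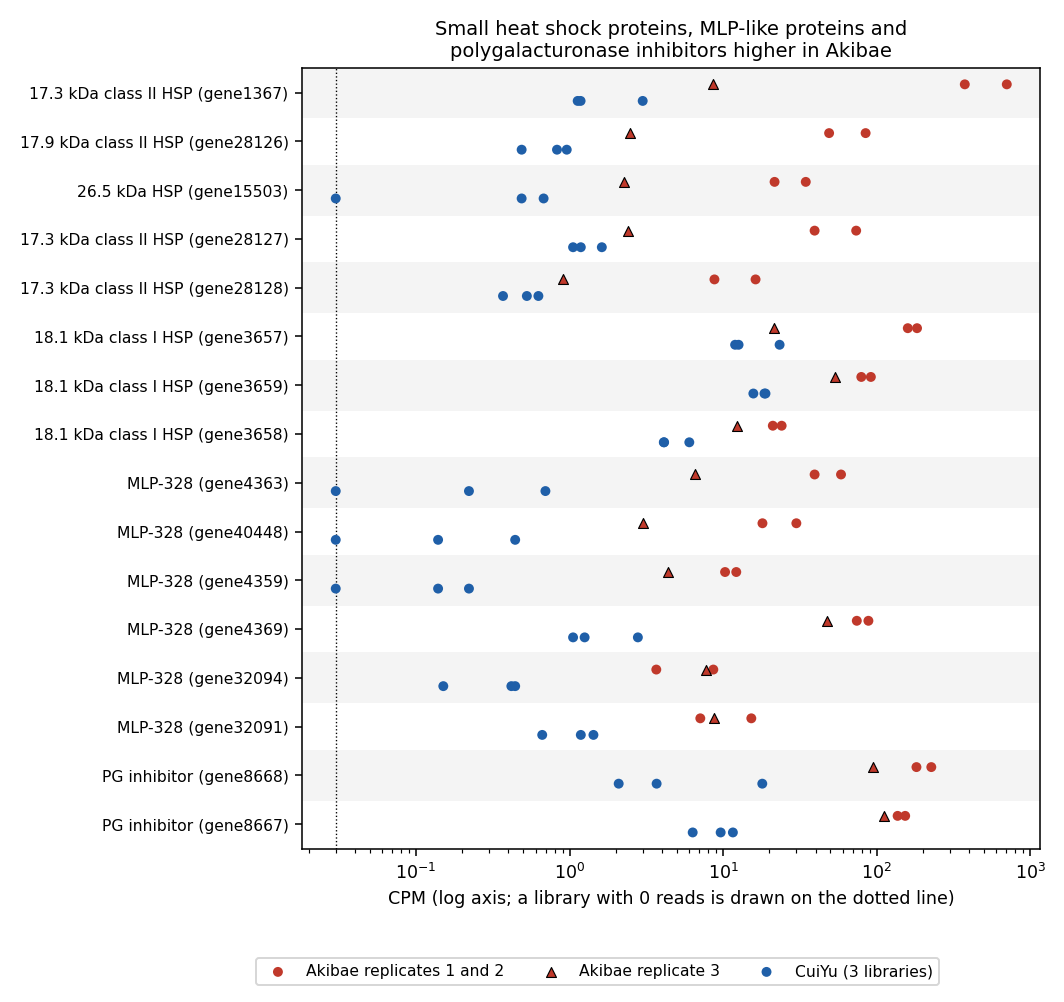
CPM (log axis) of the 8 higher small heat shock proteins, the 6 higher MLP-like protein 328 genes and 2 higher polygalacturonase inhibitors in each Akibae (red) and CuiYu (blue) library, with Akibae replicate 3 drawn as a triangle. The triangle is the lowest Akibae point for most genes and in most of them still lies above the CuiYu points.

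NAC factors, some of which drive senescence and stress responses, had 3 of 76 higher and 6 lower (3.95% and 7.89%, against 6.99% and 8.09% of all genes tested). The 6 libraries alone gave 13 higher and 5 lower, DESeq2 gave 9 and 7, and the fits with 1 library left out gave 0 to 5 higher and 0 to 5 lower, with 0 of either without Akibae replicate 2. NAC19 had 136, 139.9 and 153 CPM in the Akibae libraries, against 31.9, 33.5 and 23.8 CPM in the CuiYu libraries (gene28057, log2 fold change 2.26 ± 0.57 SE, adjusted p = 0.022), and the call ended in every leave-one-out fit but that without Akibae replicate 3, with adjusted p from 0.053 to 0.082. WRKY factors, best known from defence, had 8 of 66 higher and 2 lower (12.1% and 3.03%, against 6.99% and 8.09% of all genes tested). They had 3 higher without Akibae replicate 1, CuiYu replicate 1 or CuiYu replicate 2. WRKY39 was among the higher ones, with 6.24, 5.51 and 4.95 CPM in the Akibae libraries, against 0.696, 0.0753 and 0.663 CPM in the CuiYu libraries (gene14703, log2 fold change 3.51 ± 0.75 SE, adjusted p = 0.010).

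Intracellular resistance receptors, which recognise pathogen effectors, had 32 of 442 tested genes higher and 51 lower (7.24% and 11.5%, against 6.99% and 8.09% of all genes tested). Leaving out 1 library gave 15 to 33 higher (fewest without CuiYu replicate 1) and 30 to 45 lower (fewest without Akibae replicate 2). RPS6 gene24005 (chromosome 10, 8026100 to 8053354) had 0 CPM in all 3 Akibae libraries, against 15.2, 21.5 and 16.7 CPM in the CuiYu libraries, at least 229-fold lower in Akibae (adjusted p = 0.00015). A WRKY19 gene, whose Arabidopsis namesake joins a receptor to a WRKY domain, lies within its span, and was also without an Akibae read (gene24006, at least 43.3-fold lower). Reads of these overlapping genes cannot be told apart without strand, so their values are uncertain. In the other direction At1g50180 gene19632 had 9.32, 6.70 and 2.63 CPM in the Akibae libraries, against 0 CPM in all 3 CuiYu libraries, at least 84.9-fold higher (adjusted p = 0.0070). TMV resistance protein N gene14567 was lower as well, with 360.2, 380.4 and 462 CPM in the Akibae libraries, against 2845, 3723 and 2647 CPM in the CuiYu libraries (log2 fold change -2.94 ± 0.43 SE, adjusted p = 0.0013), and 261 genes of the table share its name.

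Ribosomal protein genes had 20 of 296 higher and 11 lower (6.76% and 3.72%, against 6.99% and 8.09% of all genes tested). This balance turned to 8 and 11 without CuiYu replicate 2, and opposite changes met within a protein. Of the L32-1 genes, gene27767 had 70.6, 98.2 and 104 CPM in the Akibae libraries, against 0.557, 1.58 and 2.14 CPM in the CuiYu libraries (log2 fold change 5.99 ± 0.47 SE, adjusted p = 2.6e-05), and gene21054 had 52.2, 63.4 and 74.8 CPM in the Akibae libraries, against 150.0, 143 and 174 CPM in the CuiYu libraries (log2 fold change -1.30 ± 0.21 SE, adjusted p = 0.0022). Ribosomal protein SA likewise was lower at gene9441 (log2 fold change -4.69 ± 0.48 SE, adjusted p = 0.00013) and higher at gene27771 (log2 fold change 2.45 ± 0.31 SE, adjusted p = 0.00047). Histones, which package newly made DNA, did the same. H2A.2 gene23059 had 41.6, 37.02 and 36.5 CPM in the Akibae libraries, against 2.02, 1.13 and 1.18 CPM in the CuiYu libraries (log2 fold change 4.72 ± 0.32 SE, adjusted p = 1.3e-05), and gene40963 had 2.31, 1.60 and 1.58 CPM in the Akibae libraries, against 23.4, 28.7 and 23.2 CPM in the CuiYu libraries (log2 fold change -3.77 ± 0.28 SE, adjusted p = 2.2e-05). H3.2 gene22928 was lower at 3.62, 2.23 and 3.15 CPM in the Akibae libraries, against 85.3, 78.7 and 75.3 CPM in the CuiYu libraries (log2 fold change -4.73 ± 0.55 SE, adjusted p = 0.00030). The varieties did not overlap in any of these genes. Among cell division genes as a whole 11 of 98 were higher and 4 lower (11.2% and 4.08%, against 6.99% and 8.09% of all genes tested). When 1 library was left out 4 to 10 were higher (fewest without CuiYu replicate 2).

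Among markers of vascular tissue 1 of 9 tested was higher and 0 lower (11.1% and 0%, against 6.99% and 8.09% of all genes tested). That gene was a sieve element occlusion protein of the phloem, with 4.01, 5.82 and 37.1 CPM in the Akibae libraries, against 0, 0 and 0.147 CPM in the CuiYu libraries (gene37837) and a ratio of Akibae to CuiYu of 329 (95% counting interval 90.7 to 2723) (adjusted p = 0.0075), and Akibae replicate 3 held most of its reads. All 12 guard cell markers listed had no read in either variety.

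Other named genes with large folds lay outside these lists. Cysteine-rich receptor-like kinase 25 had 238, 164 and 136 CPM in the Akibae libraries, against 0 CPM in all 3 CuiYu libraries (gene33113), at least 2459-fold higher in Akibae (adjusted p = 5.8e-05). It was also read in the other varieties, with 161 ± 59.2 CPM in Nijisseiki and 159 ± 105 CPM in SuCui NO.1 (SD, n = 3 each). Cytochrome P450 71A4 had 303, 348 and 514 CPM in the Akibae libraries, against 0.0696, 0.151 and 0 CPM in the CuiYu libraries (gene27907), a ratio of Akibae to CuiYu of 5358 (95% counting interval 1833 to 25986). CuiYu held 0 reads of the first gene and 3 of the second. Glycine-rich protein GRP1A, chosen for its difference in mean CPM, had 4512, 4818 and 2703 CPM in the Akibae libraries, against 1283, 1225 and 1217 CPM in the CuiYu libraries (gene34773, log2 fold change 1.69 ± 0.43 SE, adjusted p = 0.023), though its call ended in every leave-one-out fit but that without Akibae replicate 3 (adjusted p from 0.073 to 0.084). In the lower direction a temperature-induced lipocalin, a membrane-bound stress protein, had 0 CPM in all 3 Akibae libraries, against 143, 125 and 96.2 CPM in the CuiYu libraries (gene16128, at least 1578-fold lower, adjusted p = 0.0095). Desiccation protectant Lea14 had 0 CPM in all 3 Akibae libraries, against 45.7, 56.1 and 58.6 CPM in the CuiYu libraries (gene33294, at least 690.3-fold lower). No Akibae library held a read of either gene. Polyphenol oxidase, which browns cut fruit, was lower with 606, 644 and 766 CPM in the Akibae libraries, against 6276, 6092 and 4217 CPM in the CuiYu libraries (gene349, log2 fold change -3.04 ± 0.66 SE, adjusted p = 0.011). Its call ended without Akibae replicate 1 (adjusted p = 0.051). The water channel PIP1-4 was lower to a smaller degree, with 1073, 810.4 and 1094 CPM in the Akibae libraries, against 2646, 2256 and 2567 CPM in the CuiYu libraries (gene4260, log2 fold change -1.33 ± 0.23 SE, adjusted p = 0.0034).

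Some genes were read in 1 variety and not in the other. With a mean of at least 5 CPM in one and no read in the other, 42 genes were counted only in Akibae and 78 only in CuiYu, 0.228% and 0.423% of the 18420 genes that reached 5 CPM in either. Swiss-Prot matched 29 of the 42. Nijisseiki lacked reads of 4 of them and SuCui NO.1 of 16. Of the 78, 52 were matched, Nijisseiki lacked reads of 36 and SuCui NO.1 of 15, and 9 were read in CuiYu alone among the 4 varieties. One of these was an exosome subunit RRP42 gene, with 0 CPM in all 3 Akibae libraries, against 62.9, 33.3 and 57.6 CPM in the CuiYu libraries (an added locus with no gene number, at least 669-fold lower in Akibae). With a minimum of 10 CPM the counts were 15 and 33. A read count of 0 in a variety allows a level of up to 0.0773 CPM in Akibae and 0.0728 CPM in CuiYu from counting error alone.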

How the data were processed

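Fruit skin RNA of 4 pear varieties, 3 libraries each, was sequenced. Per the labels, CTAB extraction was followed by library making with the NEB Next Ultra kit. The authors deposited 1 table of read counts and FPKM for each of 43732 genes, of which 30296 have a Swiss-Prot name and 1552 are added loci. No source used here gives the aligner, counting tool, strand setting or genome build, and coordinates are those of the deposited table, printed for its 17 numbered chromosomes only. The deposited FPKM values were not tested, and no value column was without a sample. The deposited counts went into edgeR 4.0.16 (R 4.3.3) after a filterByExpr filter and TMM scaling, where a quasi-likelihood model with 1 mean for each variety was fitted to all 12 libraries, with 8 residual degrees of freedom and a common biological coefficient of variation of 0.413. The Akibae over CuiYu contrast was adjusted by Benjamini-Hochberg over the 26307 genes tested and called under 0.05. The standard error was taken as the log2 fold change over the root of F. No pair of libraries held identical values. Where a variety had no read, folds are bounds against a floor of 3 reads over its 3 libraries, and where it had 1 to 3 reads, a read ratio with an exact 95% counting interval is given. Floors and intervals cover counting error only.

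The comparison, the gene lists and the naming rules were chosen with earlier results of these data known. Genes were named when they had a Swiss-Prot name, a mean of at least 1 CPM, a call and no overlap between the varieties, and were among the 6 largest folds or the 5 largest differences of mean CPM in a direction, the member of a list with the largest fold in a direction, or the 3 highest genes counted in 1 variety. Other members of the lists named in the text were picked after their values were seen. Gene lists were described by counts and medians with no set test. Medians with genes of no read at their bound were the same as the fitted ones to 2 decimals. Alternatives were DESeq2 1.42.0, its size factors in edgeR, other filters, the 6 libraries alone, a replicate block and leaving out each library in turn.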

Additional observations from a re-analysis of the deposited data

How the results depend on the processing

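No gene named by rule reversed direction under the alternatives tried, but the balance of higher and lower genes turned in some lists: with the 6 libraries alone and by DESeq2 in MYB, NAC, suberin and the expansins, and with 1 library left out in NAC, triterpene, ribosomal protein and the photosystem cores. Against 1840 higher and 2128 lower genes, DESeq2 gave 2829 and 3024, and the 6 libraries of Akibae and CuiYu fitted alone gave 3091 and 3269. These fits shared 3940 and 3765 of the 3968 calls. Leaving out 1 library of either variety gave 964 to 1779 higher and 1233 to 1995 lower genes, and leaving out Nijisseiki replicate 1 gave 2359 and 2657 (list members 202 and 257). Of list members, 143 were higher and 208 lower, with 248 higher by DESeq2, 336 higher with the 6 libraries alone, and 62 to 141 higher and 134 to 184 lower with 1 library left out. Genes counted in 1 variety numbered 42 for Akibae and 78 for CuiYu at a minimum of 5 CPM, and 15 and 33 at 10 CPM. Libraries scaled by the DESeq2 factors gave 1822 and 2159, no filter 1767 and 2058, and a mean of at least 1 CPM 1651 and 1860. The cutin genes called lower numbered 14 to 17 over all alternatives, the wax genes 21 to 30. Of the 69 genes named by rule, 45 kept their call under every alternative. The cause of these shifts was not tested.

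Replicates of the same number did not deviate together (r = -0.023, 0.003 and -0.181 across genes for numbers 1 to 3), and no library correlated best with its own number. With 3 libraries a side these values cannot settle whether a number marks a shared tree or picking day. With the number as a replicate block 1786 genes were higher and 2038 lower, list members counted 151 and 203, and 3494 of the main calls were shared.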

Other observations

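BURP domain proteins, a plant family of secreted wall proteins that includes the drought-induced RD22 of Arabidopsis, were singled out after the table of neighbouring genes was seen. RD22-named genes were lower in Akibae in a row of 3 on chromosome 15 and a pair on chromosome 11. In the row, gene17517 had 1.30 ± 1.02 CPM in Akibae and 419 ± 38.6 CPM in CuiYu (SD, n = 3 each, log2 fold change -8.32 ± 0.77 SE, adjusted p = 7.6e-05), gene17514 had 0.327 ± 0.384 CPM in Akibae and 79.1 ± 7.89 CPM in CuiYu (log2 fold change -7.85 ± 0.76 SE, adjusted p = 9.4e-05), and gene17512 had 22.9 ± 15.9 CPM in Akibae and 149 ± 23.2 CPM in CuiYu (log2 fold change -2.69 ± 0.45 SE, adjusted p = 0.0027). In the pair, whose spans overlap so that reads may be shared, gene31326 had 9.20 ± 6.85 CPM in Akibae and 196 ± 23.4 CPM in CuiYu (log2 fold change -4.41 ± 0.57 SE, adjusted p = 0.00057) and gene31327 had 27.8 ± 20.8 CPM in Akibae and 199 ± 10.6 CPM in CuiYu (log2 fold change -2.84 ± 0.48 SE, adjusted p = 0.0030). Without Akibae replicate 3 the log2 fold changes were -9.20, -9.29, -3.43, -5.23 and -3.66 in the same order, and every call held.

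Rows of genes with the same name and the same direction of change were counted along the chromosomes. There were 57 rows of at least 2 neighbouring genes with 1 Swiss-Prot name called in the same direction, 23 higher and 34 lower in Akibae, with 122 genes between them. Those of 3 genes included callose synthase 7 on chromosome 9, higher, with 10.1 ± 2.32 CPM in Akibae and 1.06 ± 0.487 CPM in CuiYu at gene8367 (log2 fold change 3.24 ± 0.39 SE, adjusted p = 0.00036), and UDP-glycosyltransferase 87A1 on chromosome 3, lower, with 1.70 ± 0.139 CPM in Akibae and 98.7 ± 13.6 CPM in CuiYu at gene702 (log2 fold change -5.85 ± 0.63 SE, adjusted p = 0.00019). Neighbouring or overlapping copies may share reads, so the members of a row are not independent. Among the genes tested on each of the 17 chromosomes, the share called higher ran from 3.43% on chromosome 5 to 10.9% on chromosome 8, and the share called lower from 4.82% on chromosome 13 to 12.5% on chromosome 1.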
